A study of Mus musculus with 24 samples.

Results

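Fat cells grown in culture from inguinal white adipose tissue (iWAT) of mice were treated with small interfering RNA against C/EBPβ, the product of Cebpb, or with a second reagent that the labels call siNS and do not explain. The comparison described here is the one in cultures labelled aKO: 3 libraries treated with siC/EBPbeta (siCEBPb below) against 3 treated with siNS, 6 of the 24 libraries in the series, chosen by depot, strain and treatment in the labels. The aKO animals carried Senp2flox/flox with Adipoq Cre, a recombinase driven by the promoter of the fat cell gene Adipoq, so that Senp2, which encodes a protease that removes the small protein SUMO from its targets, is to be deleted in cells that have switched Adipoq on. The other inguinal cultures (Cont, 3 libraries per treatment) carried Senp2flox/flox alone, and the remaining 12 libraries are the same 4 groups from epididymal fat (eWAT). In all groups, cells of the stromal vascular fraction, the mixture that is left when mature fat cells are removed, were grown to confluence, induced for 2 days with dexamethasone, isobutylmethylxanthine and insulin, and kept for 5 more days in insulin. Poly(A) RNA was then sequenced; the age and sex of the animals, the time of siRNA treatment, and whether replicates came from separate animals or cultures were not stated in any source used here. The p-values therefore describe the spread of these libraries, which may be technical.

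C/EBPβ is a basic leucine zipper transcription factor that is switched on early when a fat cell precursor is induced to differentiate and that acts upstream of Cebpa and Pparg, the pair of factors that maintain the fat cell state. It is also the factor first known as NF-IL6, which drives acute phase and inflammatory genes in liver cells and macrophages, and it is needed for full activation of macrophages. It pairs with other leucine zipper proteins, among them ATF4, with which it binds C/EBP-ATF sites in genes of amino acid metabolism.

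Of the 6 libraries, 5 held between 11782854 and 14025668 reads counted in genes, and siNS replicate 2 held 603585. In that shallow library 1 read is worth about 1.98 CPM (reads in a gene, scaled by the library's total times its TMM factor, which was 0.840 there and 0.985 to 1.04 in the other 23 libraries), so low values there step by that amount. It also stood apart in kind: ribosomal protein genes took 0.789% of its gene counts against 2.55 to 2.89% in the others, the gene Gm42418 took 8.90% against 1.35 to 1.57%, and its log2 levels correlated with those of siNS 1 and 3 at r = 0.841 to 0.844 across genes, whereas siNS 1 and 3 correlated at 0.996. The main counts below are therefore given with and without it. Depot markers did not tell the epididymal and inguinal aKO cultures apart: Wt1, a factor of epididymal fat, lay between 1.45 and 1.98 CPM in iWAT aKO siNS and between 1.43 and 1.76 CPM in eWAT aKO siNS, and Hoxc10, a factor of inguinal fat, lay between 19.8 and 41.7 CPM and between 36.7 and 38.2 CPM (both set side by side after their values were seen). Fat cell markers were present in all 6 libraries, but so were markers of macrophages and of contractile cells, whose levels are given beside the results.

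Cebpb, the gene aimed at, fell. It stood at 114, 103 and 127 CPM in the 3 siNS libraries (114.6 ± 11.9, SD, n = 3) and at 12.7, 19.2 and 23.5 CPM in the 3 siCEBPb libraries (18.5 ± 5.43, SD, n = 3). The groups do not overlap, and the mean with siCEBPb was 16.1% of that with siNS. The log2 fold change was -2.69 ± 0.19 (standard error), with an adjusted p of 6.88e-10, where adjusted p is from edgeR's quasi-likelihood test, corrected over all 14785 genes tested, and a gene is said to rise or fall when it is under 0.05. Cebpb lies on GRCm38 chr2:167688915-167690418 on the plus strand. Senp2 did not serve as a check of genotype: its count covers the whole gene, deleted or not, and stood at 49.1, 57.4 and 48.0 CPM in the siNS libraries labelled aKO and at 55.5, 51.3 and 46.2 CPM in those labelled Cont. It did not pass the test with siCEBPb either (0.12 ± 0.08, adjusted p = 0.31).

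Of a list of 13 genes that holds Cebpb, its relatives and its partners, 11 were tested, 4 fell and 2 rose. The 4 falls include Cebpb itself. Of all genes tested, 17.7% fell and 13.6% rose. The median log2 change of the list was -0.28 (without the shallow library 4 fell and 3 rose). Cebpa, the factor that holds the differentiated state, fell from 135, 105 and 167 CPM to 31.2, 51.7 and 48.1 CPM, a log2 change of -1.74 ± 0.20 (adjusted p = 9.21e-07). All 3 siCEBPb libraries lay below all 3 siNS libraries. Cebpd, which is induced together with Cebpb in early differentiation, did not pass (-0.19 ± 0.11, adjusted p = 0.223). Cebpg, a partner with no activation domain of its own, did not pass with the shallow library (0.13, adjusted p = 0.137) and rose without it (0.17, adjusted p = 0.0292). Atf4, the amino acid stress factor, rose by 0.40 ± 0.09 (adjusted p = 0.000621), a call lost when only the 6 libraries were fitted (adjusted p = 0.13). The calls on the other 3 members depended on single libraries. Ddit3, a stress-induced partner, rose by 0.23, a call lost without siNS 1 (adjusted p = 0.202), siNS 3 (0.0816), siCEBPb 2 (0.0802) or siCEBPb 3 (0.0594). Fosl2, an AP-1 protein, fell by 0.28, a call lost without siCEBPb 1 (0.0721) or siCEBPb 2 (0.0685) and with no filter on low counts (0.209). Batf, a leukocyte AP-1 protein, had 12 reads in siNS and 3 in siCEBPb, a ratio of 6.19 with a 95% interval, for counting error only, of 1.67 to 34.2; its call was lost without siNS 1 (0.0518), siNS 3 (0.176), siCEBPb 1 (0.144) or siCEBPb 2 (0.147).

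Across the transcriptome, 4624 of 14785 genes changed, 31.3% of those tested. Of these, 2013 rose (13.6%) and 2611 fell (17.7%). These 2 shares are the background for every count of list members below. Changes of at least 2-fold were more often falls, 1134 against 334 rises, while the median over all genes was -0.01 on the log2 scale. Without the shallow library 5271 genes changed (35.7%), 2418 up (16.4%) and 2853 down (19.3%), and 1999 of the 2013 rises and 2544 of the 2611 falls were among them. No gene changed sides.

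**Figure D1:**
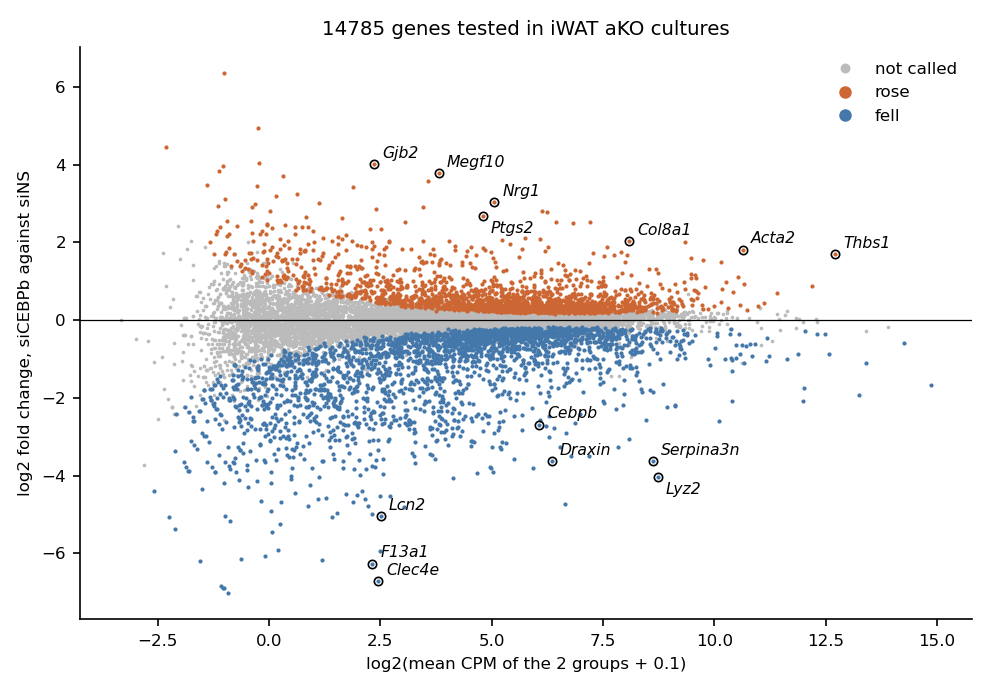
Each point is 1 of the 14785 genes tested; the horizontal axis is log2 of the mean CPM of both groups plus 0.1 and the vertical axis is the log2 fold change of siCEBPb against siNS in iWAT aKO cultures. Orange genes rose and blue genes fell at an adjusted p under 0.05; the lower edge, with Clec4e at -6.71 and F13a1 at -6.26, lies farther from 0 than the upper edge at like levels, with Gjb2 at 4.00.

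Several genes of macrophages were among the large falls. Clec4e, a macrophage receptor for fungal and mycobacterial glycolipids, stood at 11.1, 7.91 and 12.6 CPM in siNS and at 0.0765, 0.141 and 0.0842 CPM in siCEBPb, a log2 change of -6.71 ± 0.49. Those siCEBPb levels are at most a few reads per library, so the size of this change is poorly determined. F13a1, the coagulation factor XIII chain made by resident macrophages, changed by -6.26 ± 0.37, and Cd163, the macrophage scavenger receptor for haemoglobin, by -5.05 ± 0.47. Both dropped to under 0.3 CPM in every siCEBPb library. The smallest p of all genes tested was that of Draxin, a secreted axon guidance protein that inhibits Wnt signalling, at 148, 138 and 162 CPM against 10.8, 12.3 and 14.6 CPM (-3.62 ± 0.11, adjusted p = 6.64e-19). Its groups did not overlap, which the rule for genes named by largest change or smallest p required. Tnfsf11, the RANK ligand, fell by 3.50, and its decoy receptor Tnfrsf11b rose by 2.52. Alpl, tissue non-specific alkaline phosphatase, fell by 3.57, Dpep1, a membrane dipeptidase, fell by 2.14, and Gpnmb, a glycoprotein of lipid-laden macrophages that other cells also make, fell by 1.83.

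The largest rises included genes of cell junctions, growth factors and the contractile apparatus. Gjb2, the gap junction protein connexin 26, rose from 1.03, 0 and 0.228 CPM to 13.7, 7.89 and 7.41 CPM (4.00 ± 0.57). Megf10, an engulfment receptor that muscle satellite cells also use, stood at 2.15, 1.98 and 1.60 CPM against 34.6, 20.4 and 22.7 CPM (3.79 ± 0.34). Rflnb, a regulator of filamin, had the smallest p among the rises, at 18.1, 7.91 and 18.2 CPM against 134, 124 and 115 CPM (2.81 ± 0.10, adjusted p = 2.33e-17). In each of the 3 genes every siCEBPb library was above every siNS library, as the rule that named them required. Nrg1, the growth factor neuregulin 1, rose by 3.04, Ptprz1, a receptor phosphatase, by 3.58, Lrrc15, a marker of activated fibroblasts, by 2.51, and Col8a1, a short-chain collagen, by 2.04 (107.6, 94.9 and 110 CPM against 441, 452 and 427 CPM).

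**Figure D2:**
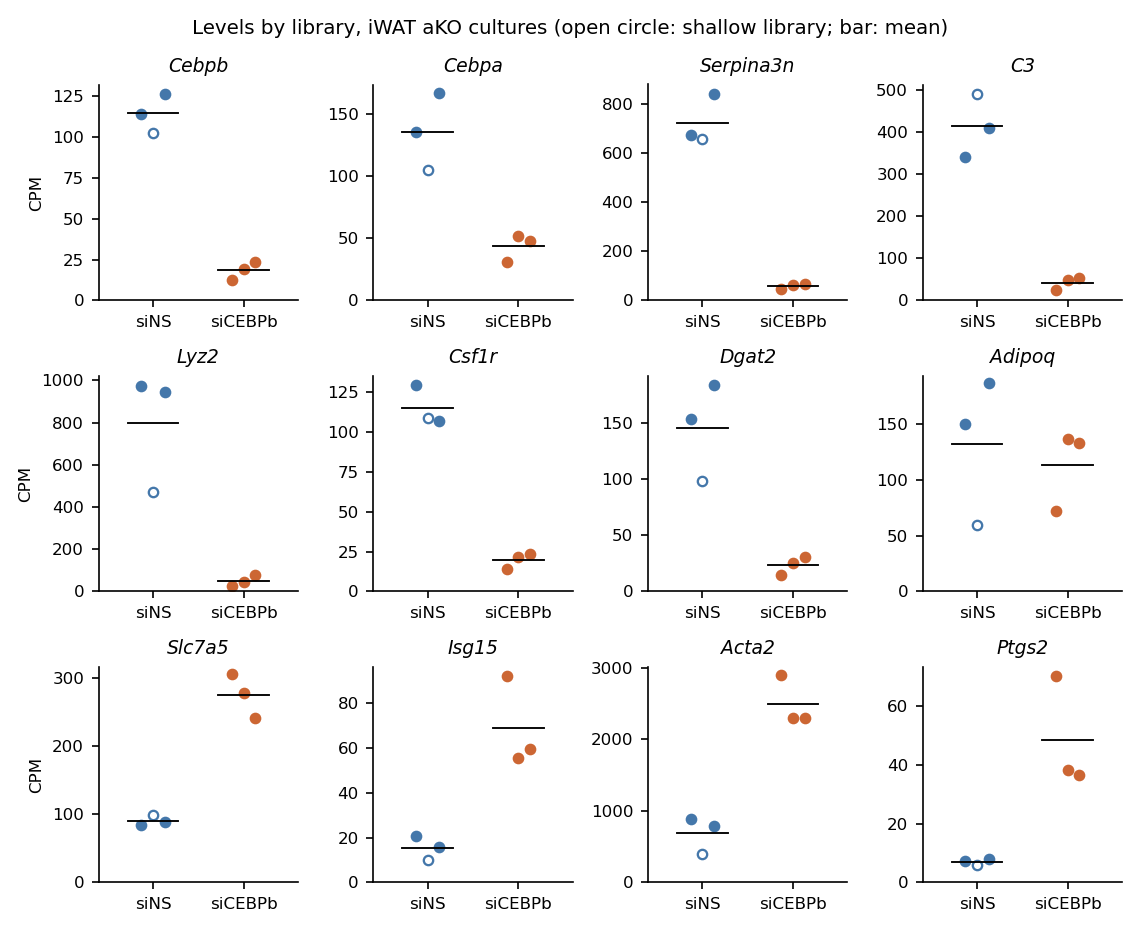
Levels in CPM of 12 genes in the 6 iWAT aKO libraries, 1 point per library, with a bar at the mean of each group and an open circle for the shallow library. In 11 of the genes the siCEBPb and siNS libraries are apart; in Adipoq, with 59.3 to 187 CPM against 71.6 to 136 CPM, they overlap.

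Acute phase and cytokine genes known as C/EBP targets mostly fell. Of 23 tested of 24, 16 fell and 2 rose, against 17.7% and 13.6% of all genes, and their median was -1.83 (16 and 2 without the shallow library). Serpina3n, a secreted protease inhibitor of the acute phase, stood at 674, 657 and 838 CPM in siNS and at 45.8, 63.4 and 67.4 CPM in siCEBPb (-3.63 ± 0.18, adjusted p = 6.43e-13). Its near copy Serpina3m fell by 5.94, and reads of the 2 may be split between them. Lcn2, the iron-scavenging lipocalin, was at 12.9, 1.98 and 17.3 CPM against 0.459, 0.564 and 0.253 CPM (-5.05 ± 0.60). The shallow library was the lowest of the siNS ones, at the level of a single read, and the groups did not overlap. Ptx3, a soluble pattern recognition protein, fell from 411, 279 and 474 CPM to 103, 99.6 and 126 CPM (-1.89 ± 0.11). Il1rn, the interleukin 1 receptor antagonist, fell by 1.55, Saa3, a serum amyloid protein, fell by 1.83, and the metallothioneins Mt1 and Mt2 fell by 1.22 and 1.24. Il6, the cytokine that gave the factor its early name, did not pass (3.27, 3.96 and 4.26 CPM against 3.83, 3.59 and 3.79 CPM, -0.02 ± 0.19, adjusted p = 0.954).

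The 2 members that rose encode an enzyme and a chemokine. Ptgs2, cyclooxygenase 2, stood at 7.23, 5.93 and 7.99 CPM in siNS and at 70.2, 38.2 and 36.5 CPM in siCEBPb (2.67 ± 0.37, adjusted p = 1.78e-05). Ccl2, which attracts monocytes, went from 61.4, 31.6 and 57.3 CPM to 112, 92.4 and 106 CPM (0.84 ± 0.14). Neither gene's groups overlap. Over a wider list of 37 cytokines, chemokines and their feedback genes, 18 fell and 8 rose, with a median of -0.31. Among the falls were Cxcl13, a B cell chemokine, by 4.45, and Socs3, the feedback inhibitor of the interleukin 6 receptor, by 1.23.

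Promoters from the RefSeq annotation of GRCm38.p6, each 250 bases before to 50 after the start of a gene, were matched to 10730 of the 14773 tested genes that have a symbol and searched on both strands for TTGCNCAA (N is any base), a form of the C/EBP site of which the palindrome TTGCGCAA is 1 case. It was in 3.04% of these promoters (2.94% of all 32851 in the table), in 91 of 1994 genes that fell (4.56%), in 39 of 1527 that rose (2.55%) and in 7 of the 18 matched genes of the list above (38.9%), which was drawn up from genes known to bind C/EBP proteins. The Cebpb promoter in the table holds none. A match is a description of the letters and not a bound site. The 60-base windows below are shown because they carry these letters in genes that led the falls or the rises, in capitals, on each gene's strand, 5′ to 3′; Ptx3 and Ptgs2 were added after their values were seen.
Clec4e, chr6:123289904-123289963, minus strand: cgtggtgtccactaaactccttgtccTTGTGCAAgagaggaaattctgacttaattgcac
Lcn2, chr2:32387922-32387981, minus strand: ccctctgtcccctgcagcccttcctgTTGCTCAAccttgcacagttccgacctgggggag
Syn2, chr6:115238778-115238837, plus strand: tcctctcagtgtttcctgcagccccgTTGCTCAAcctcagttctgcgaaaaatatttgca
Rasl11a, chr5:146844894-146844953, plus strand: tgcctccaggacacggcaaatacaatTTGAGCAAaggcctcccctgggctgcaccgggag
Ptx3, chr3:66219804-66219863, plus strand: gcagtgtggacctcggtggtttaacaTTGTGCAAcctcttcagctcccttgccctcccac
Ptgs2, chr1:150099936-150099995, plus strand: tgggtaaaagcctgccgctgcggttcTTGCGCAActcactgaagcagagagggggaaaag
The matches begin 66, 216, 190, 151, 57 and 69 bases before the start, in that order. Of these genes Syn2, a synaptic vesicle protein, fell by 4.68 and Rasl11a, a small GTPase of the Ras family, fell by 2.34. Ptgs2, whose window holds the full palindrome, was the only riser of the 6.

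Complement, coagulation and fibrinolysis genes fell in 23 of 30 cases and rose in 3, with a median of -1.09 (23 and 3 without the shallow library). C3, the component on which all complement pathways converge, was at 342, 491 and 411 CPM against 24.8, 47.9 and 53.2 CPM (-3.26 ± 0.27, adjusted p = 2.31e-08). C4b, of the classical pathway, went from 737, 1206 and 787 CPM to 147, 213 and 213 CPM (-2.21 ± 0.17). C7, of the membrane attack complex, fell by 3.75, Cfp, properdin, which stabilises the alternative pathway, fell by 3.94, and Serping1, the inhibitor of C1, fell by 1.19. The fall thus covered activators and an inhibitor. C1ra and C1s1, the proteases of C1, fell by 0.92 and 0.82; each has a near copy in the genome. The summed level of the list moved less than the count of falls, from 5548 to 5953 CPM in siNS to 4970 to 5244 CPM in siCEBPb. Among the 3 rises were F3, tissue factor, by 0.34, and Plaur, the urokinase receptor, by 0.53. F3 was not called when only the 6 libraries were fitted (adjusted p = 0.137), and Plaur not without siNS 3 (adjusted p = 0.116) or siCEBPb 1 (0.0705).

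Macrophage markers fell with 1 exception, and 3 genes of the complement list, C1qa, C1qb and C1qc, are also on the list of these markers. Of 22 leukocyte markers tested of 25, 21 fell, none rose and the median was -2.79; the count was 21 in every alternative run. Kit, a mast cell marker with at most 1.22 CPM, was the exception (-0.89, adjusted p = 0.0949), and Cd3e, of T cells, had no read in the 6 libraries. Lyz2, lysozyme M, stood at 975, 471 and 944 CPM against 27.5, 46.0 and 77.0 CPM (-4.04 ± 0.35). Csf1r, the receptor that macrophages need to survive, went from 130, 109 and 107 CPM to 14.2, 21.4 and 23.6 CPM (-2.57 ± 0.23). No siCEBPb library reached a siNS library in either gene. Adgre1, which encodes F4/80, fell by 3.15, Itgam, CD11b, fell by 4.53, and Mrc1, the mannose receptor, fell by 3.81. The summed level of the list was 2053, 1131 and 1872 CPM in siNS and 118, 208 and 249.6 CPM in siCEBPb. In these bulk libraries fewer cells of a type and less RNA per cell cannot be told apart, and the part of macrophage RNA in the falls of acute phase, complement and protease genes was not tested.

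**Figure D3:**
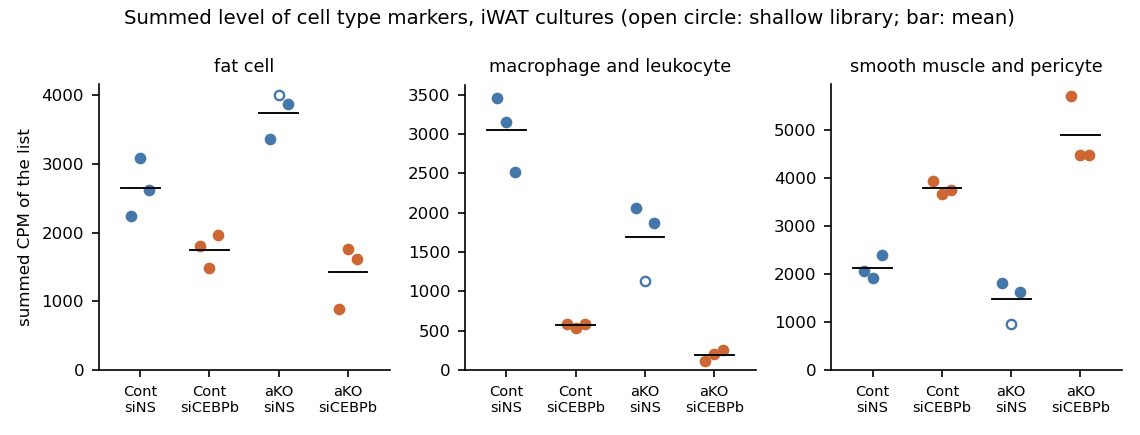
Summed CPM of 3 lists of cell type markers in the 4 iWAT groups, 1 point per library, with a bar at the mean and an open circle for the shallow library. In the aKO cultures fat cell markers summed to 3358 to 3997 CPM with siNS and 886 to 1760 CPM with siCEBPb, leukocyte markers to 1131 to 2053 and 118 to 249.6 CPM, and smooth muscle and pericyte markers to 969 to 1814 and 4476 to 5716 CPM. Lpl alone was a large part of the fat cell sums.

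Genes of the fat cell itself fell in most but not all cases. Of 12 fat cell markers, 8 fell and none rose, with a median of -1.01 (8 without the shallow library, 3 without siNS 3, 5 without siCEBPb 1). Lpl, lipoprotein lipase, stood at 1715, 2982 and 1859 CPM against 349, 611 and 583 CPM (-2.07 ± 0.25, adjusted p = 2.6e-06). It was a large part of the summed level of these markers, 3358 to 3997 CPM in siNS and 886 to 1760 CPM in siCEBPb. The sum without Lpl was not computed. Slc2a4, the insulin-regulated glucose transporter GLUT4, was at 14.4, 7.91 and 18.5 CPM against 1.84, 3.24 and 4.72 CPM (-2.32 ± 0.31). Both genes' groups were apart. Fabp4, a fatty acid binding protein of fat cells, fell by 1.00 (adjusted p = 0.00893, and 0.063 without siNS 3), and Plin1, the lipid droplet coat protein, fell by 1.02 (adjusted p = 0.0149, 0.0903 without siNS 3 and 0.0617 without siCEBPb 1). Adipoq, adiponectin, did not pass: 150, 59.3 and 187 CPM overlapped with 71.6, 136 and 133 CPM (-0.45 ± 0.29, adjusted p = 0.278), although with no filter on low counts its adjusted p was 0.000171. Lep, leptin, was at or under 1.98 CPM in every library and did not pass.

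Among transcription factors of fat cell formation, 13 of 30 fell and 5 rose, with a median of -0.08 (12 and 5 without the shallow library, 3 rises without siNS 1). Pparg, the master regulator of the fat cell, was at 36.1, 17.8 and 44.3 CPM against 22.1, 27.1 and 27.9 CPM (-0.61 ± 0.16, adjusted p = 0.00462); the shallow library lay below all siCEBPb libraries, and without siNS 3 the change was -0.39 and not called (adjusted p = 0.136). Nr1h3, the liver X receptor, fell by 1.59, Klf15, a factor of late differentiation, fell by 1.09, and Klf9 fell by 0.78. The 5 that rose were Ebf2 (0.66), Klf6 (0.42), Klf3 (0.27), Ebf3 (0.35) and Gata2 (0.56). Ebf2 marks precursors of brown and beige fat cells, and Gata2 holds precursors undifferentiated. Klf6 was not called when only the 6 libraries were fitted (adjusted p = 0.12), and Gata2 was lost in several alternatives, among them without siCEBPb 1 (adjusted p = 0.308) and without siNS 1 (0.252).

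Fatty acid and triglyceride synthesis fell broadly: 20 of 25 genes fell and 1 rose, with a median of -0.85 (21 and 1 without the shallow library, 12 and 0 when only the 6 libraries were fitted). Dgat2, which makes the last step to triglyceride, had 154, 98.9 and 184 CPM in siNS and 14.9, 25.0 and 30.8 CPM in siCEBPb (-2.77 ± 0.27). Fasn, fatty acid synthase, went from 1527, 2431 and 1819 CPM to 598, 812 and 922 CPM (-1.30 ± 0.21). Acsl1, which activates fatty acids, stood at 306, 295 and 397 CPM against 58.7, 116 and 123 CPM (-1.78 ± 0.29). In all 3 genes the lowest siNS library was well above the highest siCEBPb library. Acaca, acetyl-CoA carboxylase, fell by 0.85, Gpam, the first acyltransferase of glycerolipid synthesis, fell by 0.96, Scd1, stearoyl-CoA desaturase, fell by 0.86, and Acly, ATP citrate lyase, fell by 0.44. Scd1 and Acly were not called when only the 6 libraries were fitted (adjusted p = 0.0582 and 0.0991). The 1 riser was Elovl1, which elongates very long chains (0.25, not called without siCEBPb 1, adjusted p = 0.0714, or with the 6 libraries alone, 0.241).

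Lipid droplet, lipolysis and fatty acid handling genes fell in 14 of 28 cases and rose in 1, with a median of -0.67 (16 and 1 without the shallow library, 9 falls without siNS 3). Pnpla2, the triglyceride lipase ATGL, was at 245, 204 and 322 CPM against 59.6, 102 and 99.9 CPM (-1.63 ± 0.25). Cd36, a fatty acid transporter, fell by 1.37, with the shallow library at 96.9 CPM inside the siCEBPb range of 62.2 to 132 CPM and an adjusted p of 0.0794 when only the 6 libraries were fitted. The riser was Pck1, phosphoenolpyruvate carboxykinase, which fat cells use to make glycerol for triglyceride. It had 1 read in the siNS libraries together and 10, 37 and 12 reads in siCEBPb, a ratio of 38.1 with a 95% counting interval of 6.58 to 1531.

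Insulin signalling and glucose uptake genes went both ways, 14 falls and 6 rises among 26 (14 and 7 without the shallow library, 9 falls without siNS 3, 8 without siCEBPb 1, and 5 falls and 1 rise when only the 6 libraries were fitted). Beside Slc2a4, Igfbp4, a binding protein that restrains insulin-like growth factors, fell from 981, 734 and 1019 CPM to 165, 216 and 235 CPM (-2.17 ± 0.16). Irs1, the insulin receptor substrate, rose by 0.49 (adjusted p = 3.18e-05, 0.0543 when only the 6 libraries were fitted). Secreted fat cell products fell in 8 of 18 and rose in 3 (8 and 3 without the shallow library). Agt, angiotensinogen, was at 44.9, 27.7 and 50.9 CPM against 3.22, 5.29 and 6.40 CPM (-3.24 ± 0.20). Apln, apelin, fell by 2.74, Retn, resistin, fell by 2.65, and Rbp4, the retinol carrier, fell by 2.24. Among the 3 that rose was C1qtnf3, an adiponectin relative, from 25.4, 13.8 and 28.4 CPM to 106, 114 and 118.5 CPM (adjusted p = 4.79e-13). Fgf21 was another. The summed level of the list was higher with siCEBPb, at 2629 to 3188 CPM against 1725 to 2174 CPM with siNS. In Cont it was lower with siCEBPb, at 1930 to 2134 CPM against 2513 to 2778 CPM. The count of falls therefore does not describe the total level of these products.

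Brown and beige fat genes, a list of 38 of which 28 were tested, fell in 15 cases and rose in 2, with a median of -0.59 (15 and 2 without the shallow library). Ucp1, the uncoupling protein that defines brown fat heat production, had 1 read in the 6 libraries together, in siCEBPb 2, and Cidea had 1 read, in siNS 1. Neither was tested, and a change in them was not detectable at this depth. Ppargc1a and Ppargc1b, coactivators of mitochondrial gene expression, fell by 1.83 and 2.65, from at most 2.97 and 9.89 CPM. Tmem26, a beige cell marker, fell by 2.26, Adrb3, the β3 adrenergic receptor, fell by 1.32, and Gatm, of creatine synthesis, fell by 1.80. The 2 risers were Ebf2 and Fgf21. Prdm16 (0.21, adjusted p = 0.337) and Dio2 (-0.40, adjusted p = 0.57), 2 further brown fat genes, did not pass.

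Respiratory chain genes moved little, and here the shallow library mattered. Of 73 nuclear genes of the chain, 4 fell and none rose, with a median of -0.11. Without the shallow library 26 fell, against 19.3% of all genes, and the median was -0.16. Voom and DESeq2 without that library called 35 and 24 falls. Without siCEBPb 1 there were 2 falls, and without siNS 1 or siNS 3 there were 0, in runs that keep the shallow library. In the shallow library the 73 genes summed to 2698 CPM against 6751 and 6903 CPM in the other siNS libraries and 6012 to 6106 CPM in siCEBPb. Ribosomal protein genes showed the same dependence, with 0 of 63 called either way and a median of 0.09, but 9 falls and a median of -0.14 without the shallow library. Citric acid cycle genes fell in 9 of 21 (13 without the shallow library, 4 without siNS 3, 5 without siCEBPb 1), fatty acid oxidation genes in 11 of 29 (12 without the shallow library, 5 without siNS 3), and none of either rose with all libraries in. The 13 chain genes of the mitochondrial genome did not pass in either direction.

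**Figure D4:**
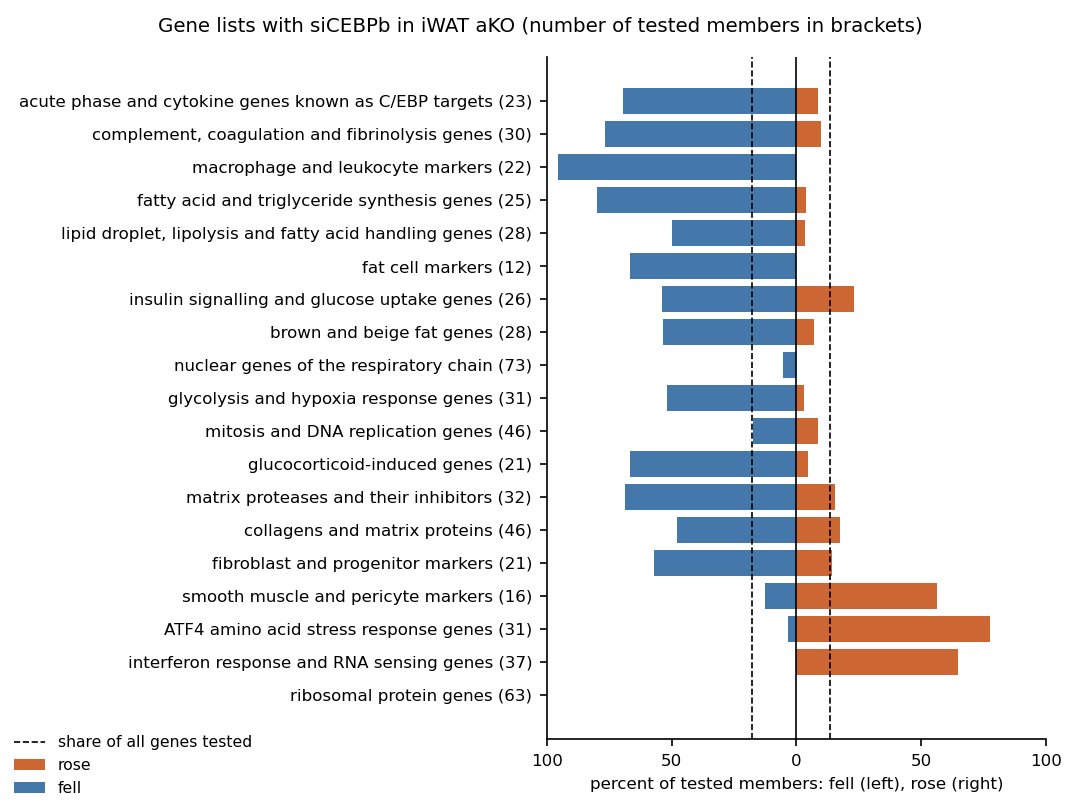
Share of the tested members of 19 gene lists that rose (right, orange) or fell (left, blue) with siCEBPb in iWAT aKO cultures; brackets give the members tested and dashed lines the shares of all genes, 13.6% up and 17.7% down. Leukocyte markers (21 of 22) stand farthest to the left and ATF4 amino acid stress genes (24 of 31) farthest to the right, and no ribosomal protein gene was called.

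Genes of the amino acid response driven by ATF4 rose together: 24 of 31 rose and 1 fell, with a median of 0.73 (25 and 2 without the shallow library). The gene that fell is Cebpb, itself a target of ATF4. Slc7a5, the large neutral amino acid transporter, stood at 83.6, 98.9 and 89.2 CPM in siNS and 306, 278 and 242 CPM in siCEBPb (1.65 ± 0.11, adjusted p = 4.62e-12). Chac1, which degrades glutathione, went from 8.17, 3.96 and 7.68 CPM to 31.6, 29.5 and 27.5 CPM (1.92 ± 0.13). Slc7a11, the cystine transporter, was at 11.2, 13.8 and 12.2 CPM against 34.7, 30.7 and 33.2 CPM (1.48 ± 0.14). Each siCEBPb library exceeded each siNS library. Cth, which makes cysteine, rose by 2.05, and Slc7a3, a cationic amino acid transporter, by 2.85. Phgdh, the first enzyme of serine synthesis, rose by 1.17, Asns, asparagine synthetase, by 1.03, and Mthfd2, of the mitochondrial folate cycle, by 1.02. Fgf21, a hormone that this response induces, had 0.344, 0 and 0.228 CPM in siNS and 2.83, 3.03 and 2.27 CPM in siCEBPb (3.26 ± 0.41).

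The C/EBP-ATF site TGATGCAA, whose reverse complement reads TTGCATCA, was in 0.755% of the promoters of tested genes and in 5 of 26 matched genes of this list (19.2%); over all genes that rose and fell the shares were 1.18% and 1.05%. It overlaps neither form of the C/EBP site above in the windows below, which were chosen after their values were seen and are shown because they carry these letters, in capitals, in 3 of the genes just named.
Chac1, chr2:119351023-119351082, plus strand: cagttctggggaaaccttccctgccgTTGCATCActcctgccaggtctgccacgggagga
Slc7a11, chr3:50443637-50443696, minus strand: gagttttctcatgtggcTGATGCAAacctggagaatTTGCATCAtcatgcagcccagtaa
Fgf21, chr7:45615596-45615655, minus strand: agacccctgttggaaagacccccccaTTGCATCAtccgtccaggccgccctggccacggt
The match in Chac1 begins 193 bases before the start, those in Slc7a11 66 and 47 bases, on opposite strands, and that in Fgf21 139 bases.

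Interferon response and RNA sensing genes rose as well, 24 of 37 with none falling and a median of 0.64 (24 and 0 without the shallow library). Isg15, a ubiquitin-like modifier, stood at 20.5, 9.89 and 15.6 CPM against 92.1, 55.3 and 59.5 CPM (1.96 ± 0.31). Usp18, which removes it, rose by 1.60, Ifit1 and Ifit3, antiviral RNA binding proteins, by 1.26 and 1.46, and Ddx58, the RNA sensor RIG-I, by 1.05. The summed level of the list was 1084 to 1352 CPM in siNS and 2018 to 2505 CPM in siCEBPb, and Ifnb1, interferon β, had no read in the 6 libraries. With siCEBPb in the Cont cultures 25 of the 37 rose, with a median of 0.71. The sources used here do not say what siNS is made of.

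Contractile genes rose. Of 16 smooth muscle and pericyte markers, 9 rose and 2 fell, with a median of 1.21 (9 and 2 without the shallow library). Acta2, smooth muscle α-actin, was at 882, 398 and 782 CPM against 2896, 2304 and 2296 CPM (1.82 ± 0.17). Myh11, smooth muscle myosin, went from 26.6, 25.7 and 25.3 CPM to 186, 128 and 132 CPM (2.52 ± 0.17). Both separated the groups fully. Tagln, Cnn1, Actg2 and Myl9, further proteins of actin filaments, rose by 1.54, 2.51, 2.77 and 1.76. The pericyte genes Abcc9, a potassium channel subunit (27.0, 17.8 and 26.2 CPM against 4.75, 7.26 and 6.15 CPM), and Cspg4, the proteoglycan NG2 (-0.69), fell, and the remaining 5 members did not pass. Cspg4 was not called without siCEBPb 1 (adjusted p = 0.161), siNS 1 (0.0742) or siNS 3 (0.0949). The summed level of the list was 969 to 1814 CPM in siNS and 4476 to 5716 CPM in siCEBPb, and whether more contractile cells or more contractile RNA per cell lies behind it cannot be told apart.

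Signals that drive contractile and matrix genes changed in both directions. Of 35 TGF-β, BMP and activin genes, 13 rose and 13 fell (13 and 14 without the shallow library). The ligands Tgfb3 (106, 101 and 97.4 CPM against 346, 317.5 and 314 CPM, 1.68 ± 0.10) and Inhba (84.2, 75.2 and 82.2 CPM against 387.5, 259.9 and 262 CPM, 1.88 ± 0.14) rose. Matrix genes fell in 22 of 46 and rose in 8, a balance that was 19 and 11 without the shallow library. In the shallow library they summed to 174000 CPM against 111700 and 114300 CPM in the other siNS libraries. Thbs1, thrombospondin 1, which activates TGF-β, rose from 2984, 3404 and 3037 CPM to 11410, 9462 and 9631 CPM (1.70 ± 0.11), while Col3a1, collagen III, fell by 1.11. Matrix proteases and their inhibitors fell in 22 of 32 and rose in 5 (22 and 6 without the shallow library). Of 30 Wnt ligands, receptors and inhibitors, 13 fell and 9 rose (13 and 10): Sfrp2, a secreted Wnt antagonist and marker of precursors, fell from 867, 635 and 897 CPM to 126.5, 187 and 202 CPM (-2.24 ± 0.16), and Notum, an enzyme that inactivates Wnt proteins, fell by 3.01. Fibroblast and progenitor markers fell in 12 of 21 and rose in 3 (11 and 4 without the shallow library), and Schwann cell markers in 4 of 6 with none rising (summed level 384 to 491 CPM in siNS and 208 to 312 CPM in siCEBPb).

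Glucocorticoid-induced genes fell in 14 of 21 cases and rose in 1, with a median of -1.01 (14 and 1 without the shallow library); dexamethasone, a synthetic glucocorticoid, is in the induction mixture of all groups. Zbtb16, a zinc finger factor, fell from 21.3, 45.5 and 27.8 CPM to 2.14, 4.37 and 3.45 CPM (-2.94 ± 0.24). Fkbp5, a chaperone partner of the glucocorticoid receptor, fell by 0.87, and Glul, glutamine synthetase, went from 271, 172 and 308 CPM to 68.9, 111 and 105 CPM. The receptor gene Nr3c1 did not pass (0.08 ± 0.09, adjusted p = 0.57). The riser was Sgk1, a kinase, by 0.32 (adjusted p = 0.161 when only the 6 libraries were fitted). Immediate early and MAPK feedback genes split, 10 rises and 5 falls of 29 (6 rises without siNS 1 or siNS 3, 3 falls without siNS 3 or siCEBPb 2), with Spry1, a feedback inhibitor of receptor tyrosine kinases, up by 1.81 and Fos, an immediate early factor, down by 1.53. Of 46 mitosis and DNA replication genes, 8 fell and 4 rose, shares not above the 17.7% and 13.6% of all genes. The counts were 8 and 4 without the shallow library, with 5 falls without siNS 1, siCEBPb 2 or siCEBPb 3 and 4 without siNS 3. Glycolysis and hypoxia genes fell in 16 of 31 and rose in 1 (21 and 2 without the shallow library). When only the 6 libraries were fitted, 6 glycolysis and hypoxia genes fell and 0 rose, and 2 mitosis and DNA replication genes fell and 1 rose.

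Other lists moved less evenly. Across all genes 17.7% fell and 13.6% rose, and counts near those shares say little about a list. Of 27 cholesterol genes 8 fell and 2 rose (11 and 1 without the shallow library; 5 falls without siNS 3, 0 rises without siNS 1 and 1 without siCEBPb 1), of 33 NRF2 and glutathione genes 13 fell and 5 rose (19 and 6), of 24 regulators of mitochondrial biogenesis 5 fell and 1 rose (3 falls without siNS 3; the 1 rise was lost without siNS 1, siCEBPb 1 or siCEBPb 3), and of 21 SUMO pathway genes 5 rose and 1 fell (6 and 1; 2 rises without siNS 3 and 3 without siCEBPb 3). Markers of endothelium rose in 3 of 14 and fell in 3, with a summed level of 103 to 118 CPM in siNS and 109.5 to 115 CPM in siCEBPb. Those of mesothelium were called in 0 of 7, with 5.93 to 8.002 CPM and 7.35 to 8.60 CPM. Of skeletal muscle markers 1 rose and 1 fell among 3 tested of 14, with 5.93 to 12.7 CPM and 22.2 to 32.9 CPM, the fall being lost without any of siNS 1, siNS 3, siCEBPb 1 or siCEBPb 2, and the defining genes Ckm, Myod1, Myog and Pax7 had no read. Of 14 epithelial markers 1 was tested and fell (not without siNS 3 or siCEBPb 1), with at most 2.36 CPM in sum.

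The same knockdown in Cont cultures changed 3597 genes (24.3%), and 4326 without the shallow library. With only the groups of each comparison fitted the order turned, with 4455 genes in Cont and 2374 in aKO. The knockdown was less deep in Cont: Cebpb went from 145, 110 and 118 CPM to 36.7, 37.6 and 33.7 CPM (-1.79), so that all 3 siCEBPb libraries of Cont kept more Cebpb than any of aKO, and the difference of the log2 changes, -0.90 ± 0.25, missed the threshold (adjusted p = 0.0522). Of the genes that rose in aKO, 947 also rose in Cont (47.0% of the aKO list and 62.2% of the Cont list), and of those that fell, 1498 also fell (57.4% and 72.2%); 36 moved in opposite directions. The test of the difference itself called 519 genes (3.51%), 195 with a higher and 324 with a lower change in aKO, and 938 (6.34%) without the shallow library (289 without siCEBPb 1). Of the 519, 91 rose and 152 fell in aKO alone, 45 and 34 in Cont alone, 140 moved the same way and farther in aKO, 21 the same way and farther in Cont, and 36 in opposite directions. Marker levels with siNS differed between the genotypes as well. Leukocyte markers summed to 2520 to 3461 CPM in Cont and 1131 to 2053 CPM in aKO. Mesothelial markers summed to 28.5 to 29.4 and 5.93 to 8.002 CPM, and endothelial markers to 169 to 179.5 and 103 to 118 CPM. Fat cell markers went the other way, with 2238 to 3090 and 3358 to 3997 CPM, a sum of which Lpl was a large part in aKO. In eWAT aKO siNS the mesothelial list, which holds the epididymal factor Wt1, summed to 6.09 to 8.29 CPM, near the iWAT aKO level. Genotype, depth of knockdown and these marker levels moved together in this comparison, and their parts were not tested. Whether the iWAT Cont and iWAT aKO cultures also differ in depot make-up was not tested.

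Genes that fell in aKO and did not pass in Cont included enzymes and secreted proteins. Ndnf, a secreted neuronal factor, stood at 16.5, 11.9 and 15.8 CPM against 2.30, 2.40 and 3.37 CPM in aKO and at 9.29, 8.12 and 7.10 CPM against 8.56, 8.62 and 9.40 CPM in Cont, a difference of log2 changes of -2.68 ± 0.18 (adjusted p = 5.36e-10). Clec3b, tetranectin, was at 13.7, 11.9 and 16.4 CPM against 1.68, 3.31 and 3.28 CPM in aKO and at 2.63, 2.77 and 0.962 CPM against 2.76, 3.34 and 3.70 CPM in Cont, a difference with an adjusted p of 0.000366. Cyp2e1, a cytochrome P450, fell by 3.80 in aKO and did not pass in Cont (0.00), a difference of -3.80 ± 0.68. The Cont siNS levels of Ndnf and Clec3b lay below all aKO siNS levels. Aox3, an aldehyde oxidase, Egfl6, a matrix protein, and Ntrk2, the receptor TrkB, differed by -3.31, -2.43 and -2.24 in the same sense. C1ra and C1s1 fell in aKO and did not pass in Cont (-0.04 and 0.02), with differences of -0.87 and -0.84, while C3, Il1rn, Fmo1, a flavin monooxygenase, Gas1, a growth arrest protein, Draxin, Sfrp2 and Igfbp4 fell in both and farther in aKO, with differences from -2.04 to -1.01.

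On the other side, genes rose in aKO and did not pass, or rose less, in Cont. Ptgs2 was at 19.3, 21.4 and 16.5 CPM in Cont siNS and at 19.9, 23.9 and 23.9 CPM with siCEBPb, a difference between genotypes of 2.43 ± 0.49 (adjusted p = 0.00888). Sema7a, a membrane-anchored semaphorin, was at 9.72, 13.8 and 9.43 CPM against 39.2, 32.7 and 34.5 CPM in aKO and at 29.7, 27.7 and 22.6 CPM against 22.6, 30.8 and 24.7 CPM in Cont (1.91 ± 0.20). For these genes the aKO siNS libraries were the lowest of the 4 groups. Ankrd1, a target of the Hippo pathway, and Inhba rose in both genotypes and farther in aKO, by 2.27 and 1.53, and Ccl2 differed by 0.91. Ppargc1a, with a difference of -2.08, was called with all libraries (adjusted p = 0.0244) and not without siNS 3 (0.0613), siCEBPb 1 (0.0659), Cont siNS 1 (0.0663), Cont siNS 3 (0.0668), Cont siCEBPb 2 (0.0767) or Cont siCEBPb 3 (0.0669). Mitosis and DNA replication genes fell in 39 of 46 in Cont, with a median of -0.41, against 8 in aKO; the difference was called in 3 of the 46, all higher in aKO, and in 7 without the shallow library, against 3.51% and 6.34% of all genes.

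**Figure D5:**
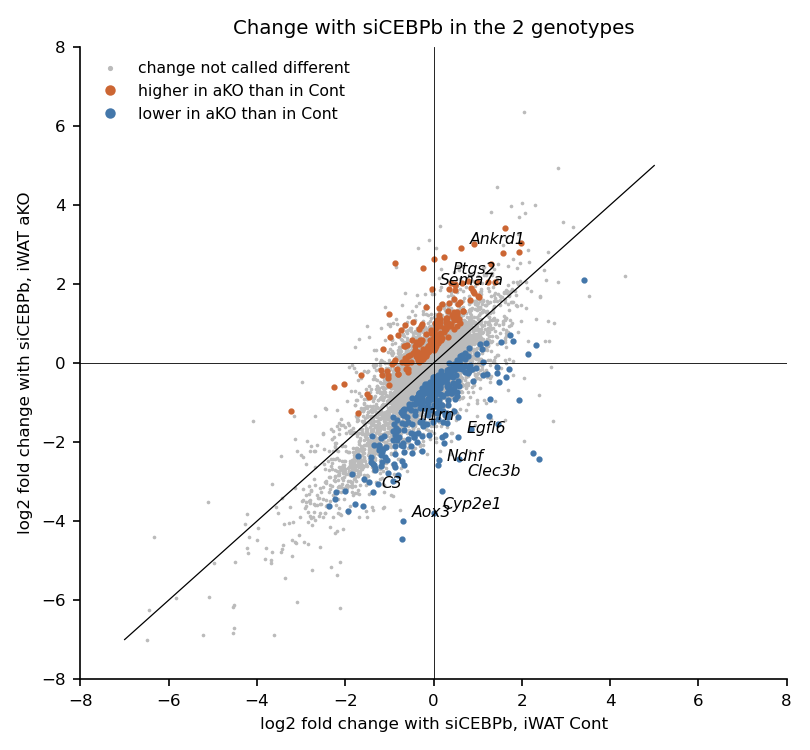
Log2 fold change with siCEBPb in iWAT Cont cultures (horizontal) and iWAT aKO cultures (vertical), 1 point per gene, with the line of equal change. Colours mark the 519 genes whose change differed between genotypes, 195 higher (orange) and 324 lower (blue) in aKO; Aox3, at -3.99 in aKO and -0.69 in Cont, and Cyp2e1, at -3.80 and 0.00, lie far below the line.

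Against the epididymal aKO cultures no difference in response was called. There siCEBPb changed 5274 genes (35.7%), and 6080 without the shallow library. With all 24 libraries, 1664 of the inguinal rises (82.7%) and 2245 of the inguinal falls (86.0%) were shared. These were 67.7% and 79.7% of the epididymal lists, and 0 genes moved in opposite directions. The test of the difference called 0 genes (0.0%) with edgeR, 0 with DESeq2 and 0 with limma-voom, with 230 genes (1.56%) under an unadjusted p of 0.05, and 15 when no filter on low counts was used. Cebpb went from 141, 158 and 155 CPM to 20.1, 32.6 and 29.5 CPM in the epididymal cultures. The level itself differed between depots in 52 genes with siNS (0.352%) and 213 with siCEBPb (1.44%), and in 776 and 1464 without the shallow library, a pair of comparisons added after the data were seen. These fits treat the depots as independent, but siCEBPb libraries of the same replicate number in the 2 depots deviated together from their group means, with r of 0.748, 0.424 and 0.537 across 8159 genes (for siNS too few libraries remain without the shallow one to check this). A fit that pairs same-numbered aKO libraries of the 2 depots, also added after the data were seen, called 0 genes for the difference in response, with 299 (2.02%) under an unadjusted p of 0.05, and 57 genes for the level with siNS and 402 with siCEBPb (0, 1090 and 2101 without the shallow library). The depots are not shown to be independent samples, and the shared counts are not independent support.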

How the data were processed

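The authors deposited a table of whole-number read counts per gene for the 24 mouse libraries, which was used here, and per-library files that hold the same counts times a constant, which were not; per the submitters' processing notes the tools were CASAVA, cutadapt 2.7, TopHat2 2.1.1, HTSeq and edgeR on GRCm38, with no order, settings or counting strand stated, and overlapping and antisense genes may share reads. Of 53465 identifiers listed, 53360 had a symbol. The 5 counter lines were dropped. Genes were kept by edgeR's filterByExpr with a minimum count of 10 (14785 genes), scaled by TMM and fitted with edgeR 4.0.16 (glmQLFit, robust; quasi-likelihood test) in R 4.3.3, with 1 mean for each of the 8 groups over all 24 libraries. P-values were adjusted by Benjamini-Hochberg over all genes, and 0.05 was the threshold. Limma 3.58.1 (voom with sample weights) and DESeq2 1.42.0 served as alternatives. Other alternatives were no filter (30184 genes), at least 1 CPM in 12 libraries (13110 genes), the 2 groups of each comparison alone, a replicate block, pairs of same-numbered aKO libraries over the depots, and each library left out. CPM are counts scaled by each library's total over the genes tested times its TMM factor. Fit and test were tested on simulated counts: of genes changed 1.5-fold, 2-fold and 4-fold in iWAT aKO, 45 of 67, 51 of 67 and 62 of 66 were recovered, and 17 of 175 calls were false, over 14491 genes. That false share is above the threshold of 0.05. The simulation gave all libraries a common profile and changed far fewer genes than were called here. It therefore does not cover the different composition of the shallow library. Depth differs between libraries and limits low genes most in the shallow library.

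Genes were named by a rule: fixed genes; the 20 largest and 15 most significant in each direction, called with and without the shallow library, a log2 CPM averaging 1 or more, groups that do not overlap and no predicted genes; the 10 largest genotype differences each way; and from each list the 8 members with the smallest p and the 6 most abundant. Cspg4, Elovl1, Gata2, Hoxc10, Kit, Pck1 and Plaur are outside it and were chosen after their values were seen. The members, lists and tests were chosen with earlier results of these data known, and list counts are descriptions without a test.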

Additional observations from a re-analysis of the deposited data

Results flagged for a closer look

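The change with siCEBPb differed between the aKO and Cont cultures of inguinal fat in 519 genes by the interaction term of edgeR's quasi-likelihood model, and the 21 of them named in the text are given here as log2 change in aKO minus that in Cont. Among complement and acute phase genes the difference was -1.89 ± 0.35 (standard error) for C3, -1.05 ± 0.17 for Il1rn, -0.87 ± 0.15 for C1ra and -0.84 ± 0.15 for C1s1. Among inflammatory genes that were higher it was 2.43 ± 0.49 for Ptgs2 and 0.91 ± 0.19 for Ccl2. Among growth factor, Wnt and matrix genes it was -1.01 ± 0.21 for Igfbp4, -1.08 ± 0.21 for Sfrp2, -1.24 ± 0.17 for Draxin, -1.25 ± 0.13 for Gas1, -2.68 ± 0.18 for Ndnf, -2.43 ± 0.31 for Egfl6, -3.001 ± 0.46 for Clec3b, 1.53 ± 0.18 for Inhba, 2.27 ± 0.37 for Ankrd1 and 1.91 ± 0.20 for Sema7a. Among enzymes, a receptor and a coactivator it was -3.80 ± 0.68 for Cyp2e1, -3.31 ± 0.51 for Aox3, -2.04 ± 0.25 for Fmo1, -2.24 ± 0.44 for Ntrk2 and -2.08 ± 0.53 for Ppargc1a. Cebpb fell less far in Cont, as given above, and its part in these differences was not tested.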

How the results depend on the processing

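The knockdown in iWAT aKO called 2374 genes when only its 6 libraries were fitted, against 4624, while the same change gave 4455 against 3597 in iWAT Cont and 5048 against 5274 in eWAT aKO; the cause was not tested, and the other alternatives stayed within 1.5 times. List counts that moved by over 1.5 times with the 6 libraries alone include falls in 12 lipid synthesis genes (against 20), 9 lipid storage genes (14), 3 fatty acid oxidation genes (11), 3 citric acid cycle genes (9), 3 cholesterol genes (8), 6 NRF2 and glutathione genes (13), 5 secreted fat cell products (8), 14 collagens and matrix proteins (22), 3 mitochondrial regulators (5) and 2 C/EBP family and partner genes (4), and rises in 5 collagens and matrix proteins (8), 4 immediate early and MAPK feedback genes (10), 2 matrix proteases and inhibitors (5), 1 fat cell transcription factor (5), 1 SUMO gene (5) and 0 fibroblast and progenitor markers (3). The genotype difference, 519 genes, was less stable: 921 with no filter, 1204 with voom, 1194 with voom and 954 with DESeq2 without the shallow library (both added after the data were seen), and 290 with the groups alone. Leaving out single libraries gave 289 (without siCEBPb 1) to 938 (without siNS 2), with 310 without siNS 3, 342 without Cont siNS 1 and 325 without Cont siCEBPb 1; the cause was not tested. The depot difference was called in 15 genes with no filter and 0 otherwise, also with a replicate block over the depots. No named value reversed. Of 137 named genes called in the knockdown comparison, 119 kept their call in every alternative. Many of them were named for a large change or a small p, so this does not describe all 4624 calls. Same-numbered siNS and siCEBPb libraries did not deviate together from their group means (r of -0.01, -0.08 and -0.02), but the siNS means included the shallow library. Without it r was 0.072 for replicate 1 and 0.068 for replicate 3. Too few siNS libraries then remain to decide whether replicate numbers pair the libraries. With a replicate block 1997 genes rose and 2623 fell.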
